A study of Mus musculus with 16 samples.

Results

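Mitochondrial ribosomal proteins are the protein part of the ribosome that works inside mitochondria. This ribosome translates the few messages of the mitochondrial genome, which encode core subunits of the respiratory chain and of ATP synthase. Its proteins are all encoded in the nucleus, made in the cytosol and imported. The large subunit joins amino acids and the small subunit reads the message. Symbols starting with Mrpl were given to large subunit proteins and those starting with Mrps to small subunit proteins, and many of both kinds have a counterpart in bacterial ribosomes while others are found only in mitochondria. The genes were chosen by symbol alone (Mrpl or Mrps, a number and at most a letter from a to c). The rule found 77 genes among the 24421 symbols listed, 48 Mrpl and 29 Mrps. It uses no measured value, but it was set with earlier results of these data known. All 77 passed the filter on low counts (10 counts or more in 4 or more libraries), as did 59.4% of all symbols.

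RNA sequencing was done on head tissue of mouse embryos at embryonic day 8.5, which reached from the otic vesicle region down to the first branchial arch. The embryos were wild type or homozygous for an Ift88-null allele, and came from the third generation kept on a diet with 2 ppm folic acid (moderate) or 10 ppm (enriched). Ift88 encodes a part of the train that carries cargo along cilia, and the study concerns harm of folic acid supplementation to cilia. Each of the 4 groups held 4 libraries. The labels do not say which embryos shared a litter or which promoter or lesion made the null allele, so the tests weigh differences against the spread among these libraries, part of which may be technical.

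Ift88 itself stood between 9.30 and 20.9 CPM (counts scaled to the library total) in the wild type libraries and between 2.01 and 8.61 CPM in the mutants. In moderate diet wild type it read 19.9, 9.30, 20.9 and 20.7 CPM, and in moderate diet mutants 3.35, 6.44, 2.01 and 3.44 CPM. In enriched diet wild type it read 19.0, 20.7, 17.9 and 20.8 CPM, and in enriched diet mutants 2.99, 8.61, 2.86 and 5.25 CPM. The groups of a diet did not overlap. All 20 listed head tissue markers were detected in all 16 libraries, at very unlike levels. Sox2 (216 to 300 CPM) and Otx2 (126 to 191 CPM) were the highest. Egr2 (0.25 to 2.79 CPM) and Hesx1 (0.34 to 2.83 CPM) were the lowest. Several libraries stood apart. In 3 libraries of the moderate diet (wild type 2, mutants 1 and 2) the sex on the label went against sex-linked counts. Wild type 2 of the moderate diet also had the lowest Ift88 among wild types. Mutant 3 of the moderate diet had a score of -0.17 for hypoxia and glycolysis genes, while the other moderate diet mutants had 0.93 to 1.11 (mean centred log2 CPM). Mutant 3 of the enriched diet had a summed level of 194 CPM for 10 markers of maternal decidua and trophoblast, while the wild type libraries of that diet reached at most 10.9 CPM, and Prl3c1, Psg17 and Tpbpa were at 0 in all enriched diet mutants.

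The symbols do not always match the place of the protein. In published structures Mrps30 and Mrps18a sit in the large subunit, and Mrps36 is a component of the alpha-ketoglutarate dehydrogenase complex and not of the ribosome. By structure the list therefore held 50 large subunit genes, 26 small subunit genes and Mrps36. Counts below follow the symbols unless structure is named. The products of the mitochondrial genome itself were not analysed here.

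Promoters of ribosomal protein genes of this organelle are known for short sites bound by the ETS factor GABP and by NRF1, which also act on respiratory chain genes. RefSeq promoter windows (GRCm38.p6, 250 bases before to 50 after the annotated start) were matched by symbol for 68 of the 77 genes. The ETS letters CCGGAAG stood in 36.8% of the 68 genes on either strand, against 18.4% of all 10893 tested genes with a window. The YY1 letters AAGATGGCG stood in 11.8% against 3.24%, and the NRF1 letters (GCGC, any 2 bases, GCGC) in 20.6% against 14.4%. SP1 letters (GGGCGG) were less frequent than in the tested genes, in 34 of the 68 genes, where 69.1% of tested genes held them. The E-box letters CACGTG stood in 7.35% against 11.6%, and ACGTG, the core of the hypoxia response element and also contained in that E-box, in 23.5% against 28.9%. A letter match is a description and not a bound site. The stretches below, 150 bases before the start, were picked because they hold such letters, so they are not a sample of the genes that fell. With the ETS, NRF1 and SP1 letters and few exonic bases, Mrpl34, Mrpl12 and Mrps12, in that order, had the largest falls in enriched diet mutants. Mrpl48 had the log2 fold change nearest 0 among genes not called there whose stretch held the ETS letters. Of genes that fell more than Mrpl34, Mrpl16 held none of these letters in its window. Mrpl20 held only the E-box letters with their ACGTG, and Mrps11 the YY1 and SP1 letters. Capitals mark the ETS letters in Mrpl34 (chr8:71464776-71464925, plus strand) and, as the reverse complement, in Mrpl48 (chr7:100583131-100583280, minus strand), the NRF1 letters in Mrpl12 (chr11:120484487-120484636, plus strand, of which 24 bases are exonic in the annotation) and the reverse complement of the SP1 letters in Mrps12 (chr7:28741822-28741971, minus strand).
Mrpl34: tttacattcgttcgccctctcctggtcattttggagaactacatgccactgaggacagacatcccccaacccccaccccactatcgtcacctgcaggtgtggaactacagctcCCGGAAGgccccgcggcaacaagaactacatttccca
Mrpl12: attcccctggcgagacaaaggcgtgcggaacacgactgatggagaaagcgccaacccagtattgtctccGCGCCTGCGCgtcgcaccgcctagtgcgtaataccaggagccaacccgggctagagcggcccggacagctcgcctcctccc
Mrps12: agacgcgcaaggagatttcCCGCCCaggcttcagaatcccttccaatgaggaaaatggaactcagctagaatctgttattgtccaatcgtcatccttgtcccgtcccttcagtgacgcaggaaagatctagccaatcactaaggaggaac
Mrpl48: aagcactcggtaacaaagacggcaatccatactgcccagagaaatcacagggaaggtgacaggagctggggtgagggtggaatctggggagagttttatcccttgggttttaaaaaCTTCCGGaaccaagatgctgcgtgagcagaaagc

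Among the 32 matched genes that fell in enriched diet mutants (below), 40.6% held the ETS letters, against 33.3% of the other 36. For the YY1 letters the shares were 18.8% (6 genes) and 5.56% (2 genes), and the NRF1 letters stood in 5 of 32 and 9 of 36. These are shares of few genes and were not tested.

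Levels per transcript length differed widely between the genes. Per kilobase of transcript, Mrpl genes ran from 1.68 to 124 CPM with a median of 38.4, and Mrps genes from 3.66 to 80.6 CPM with a median of 29.4. Mrpl12, whose product forms the stalk that recruits translation factors, was the highest with a mean of 124 CPM per kilobase over 16 libraries. The mitochondria-specific Mrpl52 followed with 116 ± 16.4 (SD, 16 libraries), and its libraries (86.2 to 148) overlapped those of Mrpl12 (83.4 to 155). Mrpl42, also specific to mitochondria, came next with 95.7 ± 10.1. In the small subunit Mrps21 led with 80.6 ± 9.91, then Mrps15 with 60.7 ± 5.03 and Mrps23 with 48.2 ± 6.72, of which the ranges of neighbours again overlapped. At the low end stood Mrpl35 (5.56 ± 1.95), Mrpl23 (2.16 ± 0.52), a protein of the exit tunnel, and Mrpl48 (1.68 ± 0.14), a protein of the central protuberance. The lowest Mrps genes were Mrps33 (6.86 ± 0.89), Mrps5 (5.72 ± 0.37), which lines the path of the message, and Mrps36 (3.66 ± 0.63). Lengths are those of the principal GENCODE transcript, so a gene with a long annotated end reads low on this scale.

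**Figure D1:**
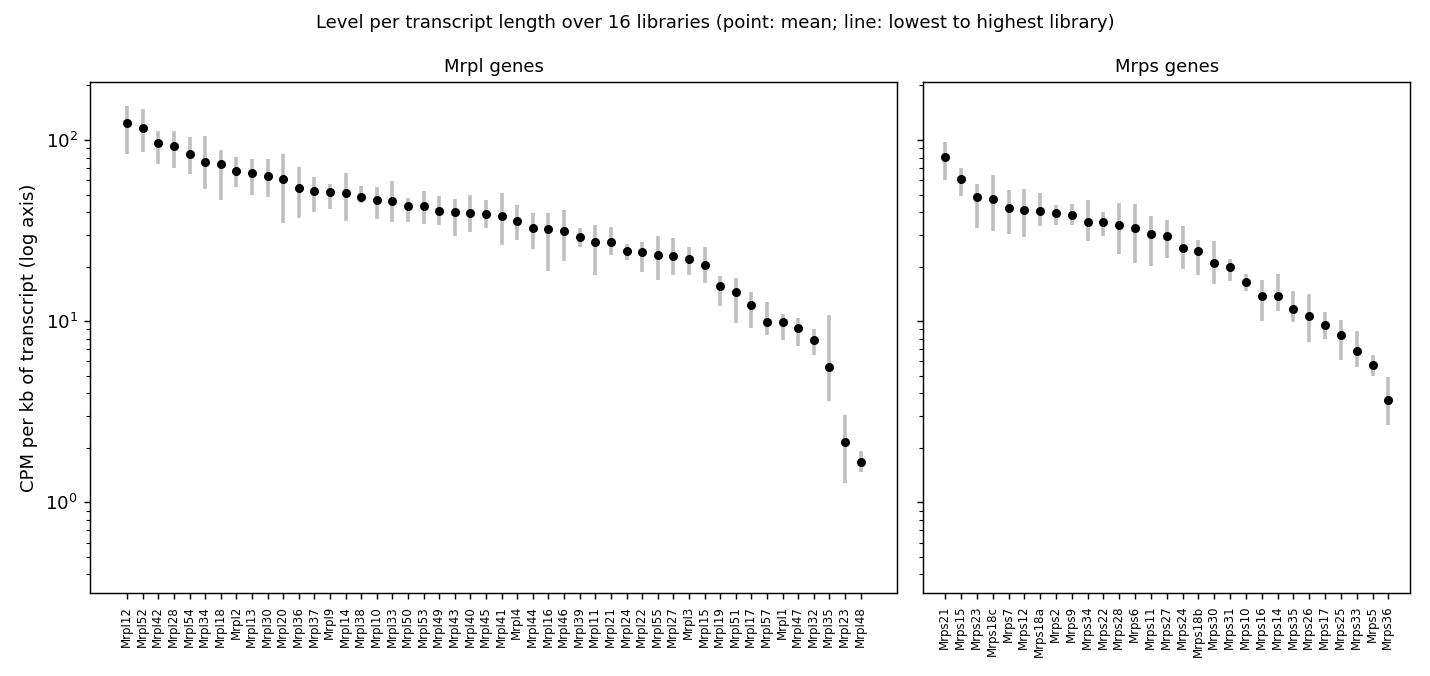
Level of each of the 48 Mrpl and 29 Mrps genes as CPM per kilobase of transcript (log axis), with a point for the mean of 16 libraries and a line from the lowest to the highest library. Levels fall from 124 for Mrpl12 to 1.68 for Mrpl48, and the line of Mrpl35 is long because 2 libraries lie far above the others.

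On the moderate diet, loss of Ift88 came with no called change in these genes, which does not show equal levels. None of the 77 passed the threshold (edgeR quasi-likelihood test, adjusted p under 0.05) as lower and none as higher, where 2.83% of all 14514 genes tested were called lower and 4.79% higher (7.62% in all). Their median log2 fold change was -0.02, against -0.01 over all genes, and 42 of 77 lay below 0 (51.9% of all genes). At an unadjusted p under 0.05 there were 6 genes by edgeR (23.4% of all genes), 6 by DESeq2 and 4 by limma-voom.

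Mrps11, a protein of the small subunit platform that helps hold the message, came closest, and is named for that after its values were seen. It read 35.9, 36.7, 34.0 and 39.6 CPM in moderate diet wild type and 27.2, 29.9, 34.3 and 24.8 CPM in the mutants. Only mutant 3, the library with low hypoxia genes, reached the wild type range. Its log2 fold change was -0.33 ± 0.10 (SE), with an edgeR adjusted p of 0.0541. Without mutant 3 it was -0.40 ± 0.10 with an adjusted p of 0.0136, and Mrps11 was then the 1 gene of the 77 called lower, where 6.13% of all genes were and 8.43% were called higher. DESeq2 with all libraries also called it lower (adjusted p 0.0215). The other 5 genes with an unadjusted p under 0.05 lay above 0. The largest of these was Mrps30, a mitochondria-specific protein of the large subunit, which read 65.7, 65.8, 59.8 and 59.0 CPM in wild type and 73.0, 91.4, 70.3 and 71.7 CPM in mutants. These groups did not overlap, but its log2 fold change of 0.29 ± 0.12 did not pass (adjusted p 0.153).

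On the enriched diet, loss of Ift88 came with lower levels in both subunits. Of the 77 genes 36 were lower in mutants and 0 higher, while 41 did not pass. Over all genes tested 16.8% were called lower and 14.4% higher (31.2% in all). At an unadjusted p under 0.05 there were 45 of the 77, all lower, against 42.9% of all genes in either direction. The 36 were 21 of 48 Mrpl and 15 of 29 Mrps genes, and DESeq2 and limma-voom each also called 36. The median log2 fold change was -0.28 (all genes -0.01), with a range from -0.79 to 0.46, and 69 of 77 lay below 0 (50.6% of all genes). For 22 genes every mutant lay below every wild type library (12.5% of all genes). By structure 22 of 50 large subunit genes and 13 of 26 small subunit genes fell, and Mrps36 fell. The share was 13 of 30 for large subunit proteins with a bacterial counterpart and 8 of 19 for those without, and 6 of 15 and 5 of 9 in the small subunit outside the S18 family. Each of these classes held called genes.

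**Figure D2:**
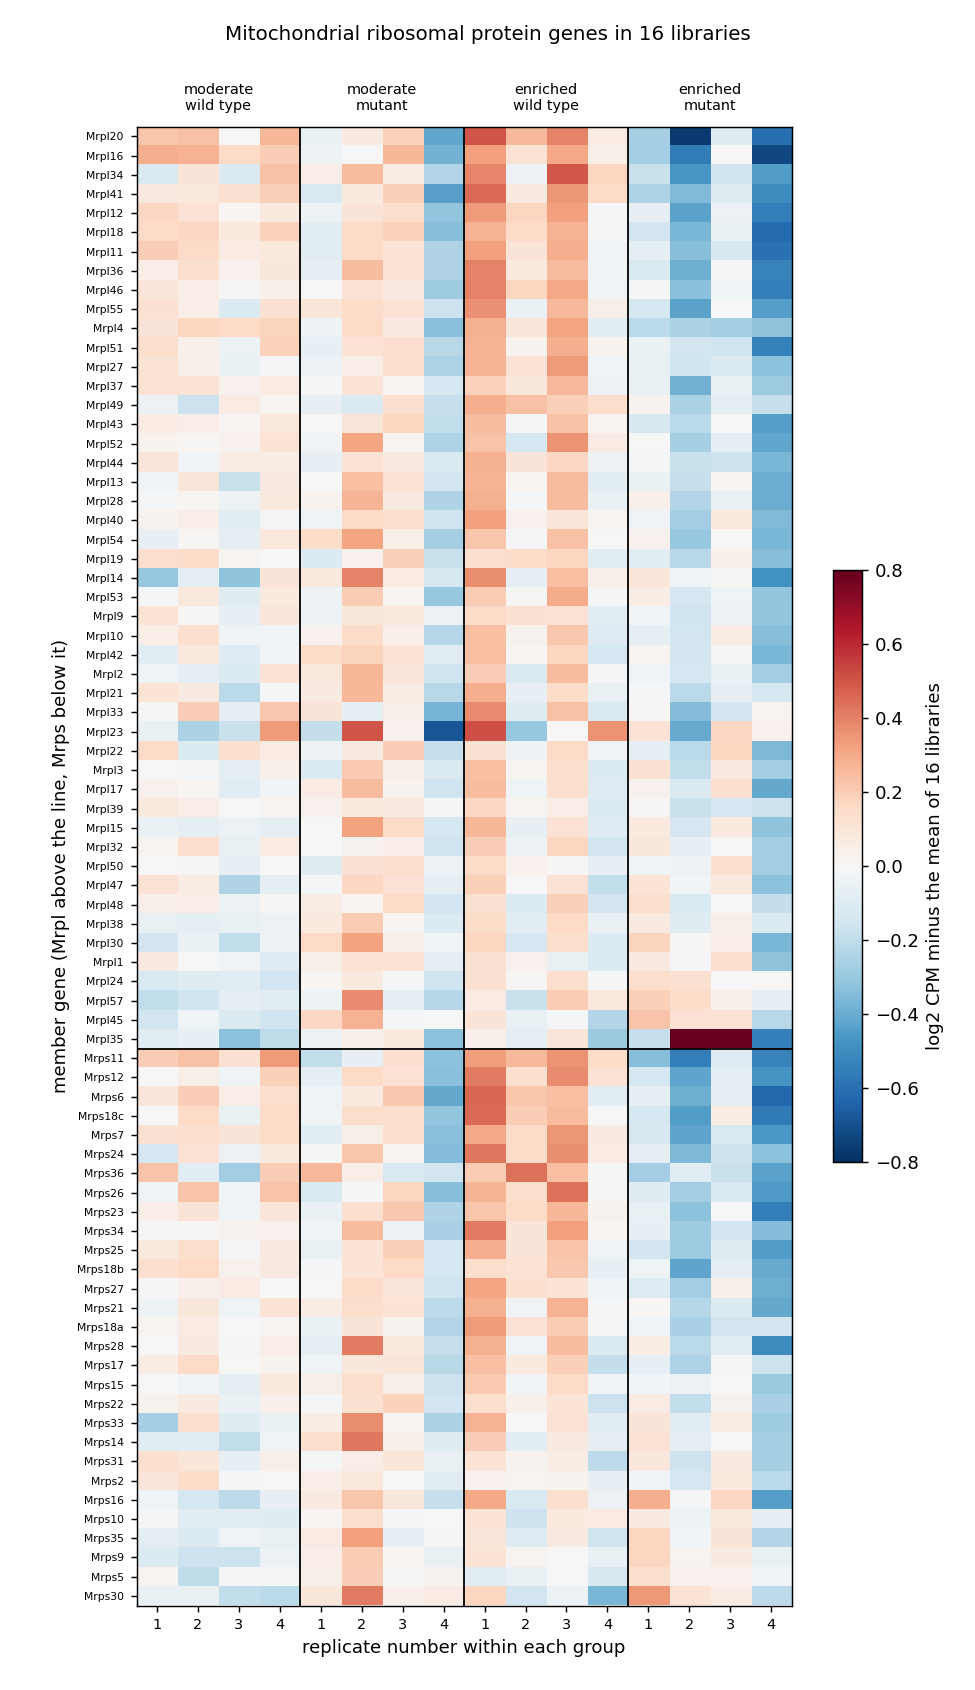
Log2 CPM of each gene minus its mean over the 16 libraries, with rows ordered within Mrpl and Mrps by the log2 fold change on the enriched diet and columns by group and replicate. Colours stop at 0.8 on either side; the 2 cells at the end of the scale are Mrpl35 in enriched diet mutants 2 and 3, and of the 77 genes 70 or more lie above their mean in enriched diet wild type 1 and 3 and moderate diet mutants 2 and 3, while 3 do in mutant 4 of either diet and 8 in enriched diet mutant 2.

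The largest fall was that of Mrpl20, whose bacterial counterpart binds ribosomal RNA early in the assembly of the large subunit. It read 64.3, 54.3, 59.8 and 47.5 CPM in enriched diet wild type and 37.6, 26.7, 42.3 and 29.8 CPM in enriched diet mutants. All 4 mutants lay below all 4 wild types, and the log2 fold change was -0.79 ± 0.14 (edgeR adjusted p 0.000905), a fall by 42.3%. On the moderate diet it read 52.9, 53.4, 45.5 and 54.5 CPM in wild type and 43.6, 47.6, 51.5 and 34.0 CPM in mutants, where the groups overlapped and the change of -0.22 ± 0.13 did not pass (adjusted p 0.348).

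Mrps11 read 39.5, 37.4, 40.1 and 34.7 CPM in enriched diet wild type and 24.6, 21.3, 29.1 and 21.6 CPM in mutants. The groups were apart, with a log2 fold change of -0.70 ± 0.10 and the smallest edgeR adjusted p of the 77 (0.000308). Its gene (chr7:78783119-78792989, plus strand, mm10) starts head to head with Mrpl46 (chr7:78775236-78783531, minus strand), and their annotated exons share 173 bases. Mrpl46, a mitochondria-specific large subunit protein, fell by 0.47 ± 0.12 on the log2 scale (edgeR adjusted p 0.00852); it is named for its position. The library kit keeps no strand, so reads in the shared bases cannot be assigned to one of them with certainty.

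Mrpl16, which lies near the tRNA sites of the large subunit, read 46.1, 39.7, 45.5 and 37.9 CPM in wild type and 30.4, 24.9, 36.8 and 22.1 CPM in mutants of the enriched diet. Its groups were apart by a narrow margin, and it fell by 0.62 ± 0.14 on the log2 scale (edgeR adjusted p 0.00442). Mrpl34, a small protein embedded in ribosomal RNA whose promoter is printed above, read 59.4, 43.7, 63.8 and 50.9 CPM in wild type and 39.9, 32.7, 40.5 and 33.1 CPM in mutants. Every mutant was lower, with a change of -0.59 ± 0.13 (adjusted p 0.00452). Mrpl41, a large subunit protein without a bacterial counterpart, had 39.6, 30.5, 37.0 and 32.4 CPM against 24.4, 22.6, 27.0 and 20.4 CPM, again without overlap, and a change of -0.58 ± 0.13 (adjusted p 0.00406).

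Among small subunit genes Mrps12, the counterpart of the bacterial protein at the decoding centre, read 47.7, 39.0, 46.4 and 38.7 CPM in enriched diet wild type and 32.4, 26.7, 33.9 and 25.7 CPM in mutants. Its groups were apart, and the log2 fold change was -0.57 ± 0.12 (edgeR adjusted p 0.0027). Mrps6, whose bacterial counterpart pairs with S18 on the platform, read 37.5, 31.9, 32.3 and 25.7 CPM in wild type and 25.8, 20.8, 25.9 and 17.7 CPM in mutants. Wild type 4 fell among the mutants, and the change was -0.55 ± 0.14 (adjusted p 0.00896). Mrpl12, the stalk protein and the gene with the highest level per length, read 204, 182, 202 and 160 CPM in wild type and 154, 120, 156 and 110 CPM in mutants, without overlap, and fell by 0.52 ± 0.12 on the log2 scale (adjusted p 0.00385). The 8 genes with the largest falls and Mrpl12 passed in each of the 21 alternative fits or subsets of libraries that were run.

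**Figure D3:**
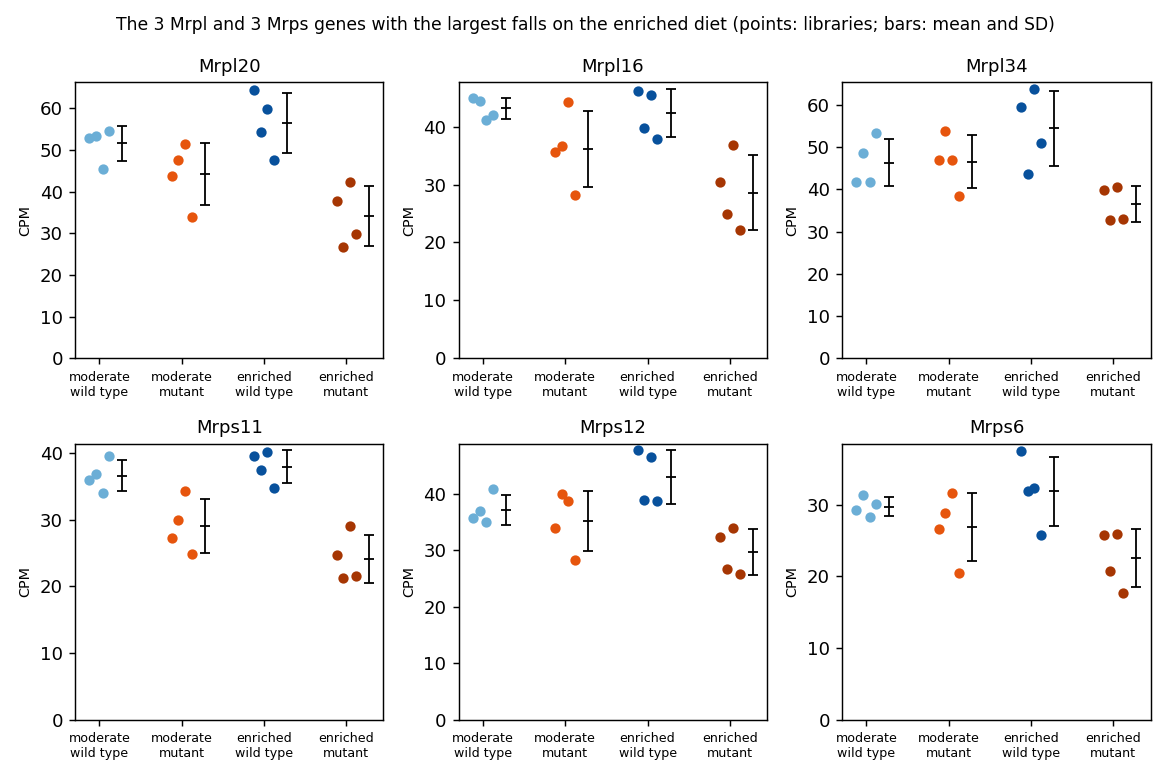
CPM of the 3 Mrpl and 3 Mrps genes with the largest falls on the enriched diet, with 1 point a library and the mean and SD of each group of 4 beside the points. In 5 of the 6 genes all enriched diet mutants lie below all enriched diet wild types; in Mrps6 wild type 4 lies among the mutants.

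The S18 family, in which 3 paralogous genes stand for 1 bacterial protein, fell as a whole on the enriched diet. Mrps18c, which takes the place of bacterial S18, read 40.8, 34.1, 35.6 and 29.9 CPM in wild type and 27.2, 21.9, 31.1 and 20.1 CPM in mutants, with 1 mutant inside the wild type range and a log2 fold change of -0.55 ± 0.13 (edgeR adjusted p 0.00584). Mrps18b, in another position of the small subunit, changed by -0.37 ± 0.10 (adjusted p 0.00876). Mrps18a, in the large subunit, changed by -0.32 ± 0.09 (adjusted p 0.0139). The call of Mrps18b was lost without enriched mutant 2 (adjusted p 0.0507). That of Mrps18a was lost without enriched wild type 1 (0.0644), enriched wild type 3 (0.0539) or enriched mutant 2 (0.0776), and in 3 other of the 21 alternatives. On the moderate diet the 3 genes lay at -0.06, -0.06 and -0.07.

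Of the genes named above for a high level per length, Mrpl12, Mrps21 and Mrps23 were among the 36. Of those named for a low level only Mrps36 was, which is not a ribosomal protein. Mrps23, a mitochondria-specific protein, fell by 0.45 ± 0.11 on the log2 scale (edgeR adjusted p 0.00558), with 74.2, 70.9, 76.6 and 64.9 CPM in wild type and 60.9, 50.7, 63.6 and 43.3 CPM in mutants, which did not overlap. Mrps21 fell by 0.32 ± 0.11 (adjusted p 0.0346) and Mrps36, the dehydrogenase component, by 0.50 ± 0.17 (adjusted p 0.0349), but each lost its call in 10 of the 21 alternatives. For Mrps21 these included the fits without enriched wild type 1 (0.117), wild type 3 (0.138), mutant 2 (0.108), mutant 3 (0.058) or mutant 4 (0.133). For Mrps36 they included the fits without enriched wild type 1 (0.0739), 2 (0.164) or 3 (0.0958) or mutant 1 (0.0932), 3 (0.0618) or 4 (0.0931). Of the genes with high levels, Mrpl52 had a change of -0.33 ± 0.13 (adjusted p 0.0599), Mrpl42 of -0.22 ± 0.10 (0.11) and Mrps15 of -0.18 ± 0.09 (0.13), none of which passed. Mrpl52 passed without enriched wild type 2 (-0.45, adjusted p 0.0156) and Mrpl42 without enriched wild type 4 (-0.28, adjusted p 0.0467). Low genes that did not pass were Mrpl23 (-0.21 ± 0.27), Mrps33 (-0.15 ± 0.14), Mrpl48 (-0.07 ± 0.12) and Mrps5 (0.11 ± 0.08). The 95% interval of Mrpl48 ran from -0.32 to 0.18, which does not show equal levels.

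Mrpl35 had the highest log2 fold change of the 77, and its mutants split. It read 20.4, 18.7, 21.2 and 16.1 CPM in enriched diet wild type and 17.4, 36.7, 40.04 and 13.5 CPM in mutants. Mutants 2 and 3 were above all wild types, mutant 4 below all, and the change of 0.46 ± 0.26 did not pass (edgeR adjusted p 0.19). Without enriched mutant 4 it was 0.73 ± 0.22 and passed (adjusted p 0.0234), without enriched mutant 2 it was 0.16 ± 0.27 (adjusted p 0.682) and without enriched mutant 3 it was 0.26 ± 0.24 (adjusted p 0.431). It was also 0.26 by limma-voom (adjusted p 0.484). Mrpl35 stayed between 15.7 and 20.9 CPM in all 8 libraries of the moderate diet. Mrps30, the largest positive value on the moderate diet, had a change of 0.15 ± 0.12 on the enriched diet (adjusted p 0.373).

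**Figure D4:**
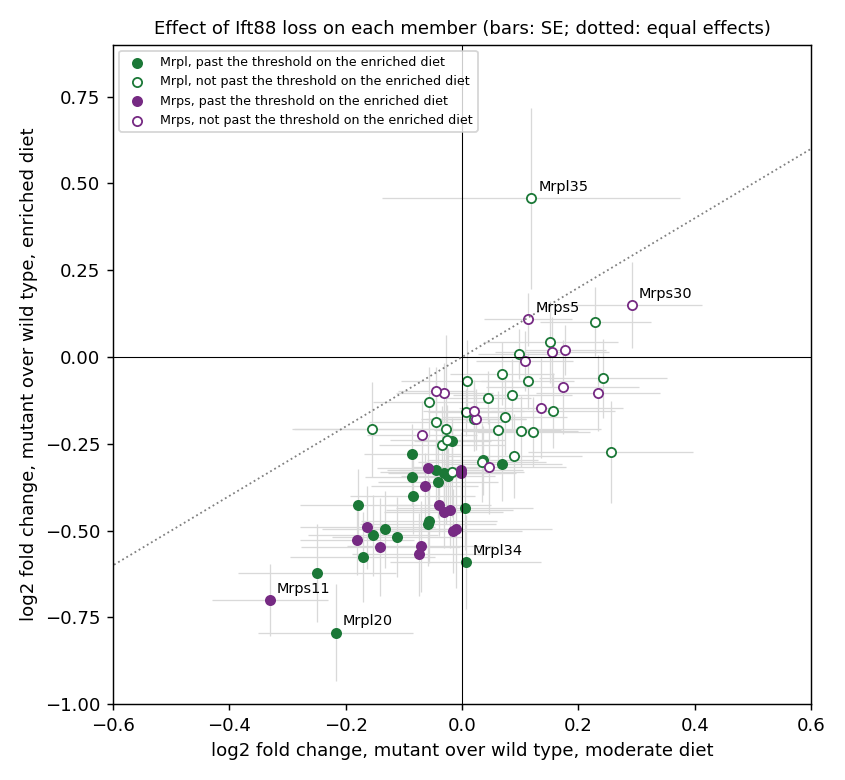
Log2 fold change of each gene in mutants over wild type on the moderate diet (x) and the enriched diet (y), with standard errors as bars, Mrpl in green and Mrps in purple, filled where the enriched diet change passed the threshold. All but Mrpl35 lie below the dotted line of equal effects, and the filled points reach from -0.24 to -0.79 on the y axis.

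The difference between the 2 genotype effects, enriched minus moderate, was tested for each gene, and none of the 77 passed by edgeR, DESeq2 or limma-voom (0% of all genes did by edgeR). At an unadjusted p under 0.05 there were 33 by edgeR, all negative, 29 by DESeq2 and 28 by limma-voom, where 9.65% of all genes reached that level by edgeR. The median difference was -0.30 (all genes -0.00273), and 76 of 77 lay below 0 (50.4% of all genes). Smallest p-values were those of Mrpl34 (-0.60 ± 0.19, unadjusted p 0.00575), Mrps25, a mitochondria-specific small subunit protein (-0.39 ± 0.13, 0.00767), and Mrpl20 (-0.58 ± 0.19, 0.00857), each with an adjusted p of 0.501. A fall on the enriched diet beside none called on the moderate diet is therefore not shown, gene by gene, to be a difference between diets. Without the 3 libraries whose sex label was contradicted, all of the moderate diet, the median difference was -0.18. Other genes with short transcripts had negative differences too. Their median was -0.19 under 1000 bases (ribosomal genes -0.37) and -0.18 from 1000 to 1500 bases (ribosomal genes -0.31). After the correction for transcript length and GC content described below, the median difference of the 77 was -0.15. There 69 lay below 0, and 16 had an unadjusted edgeR p under 0.05.

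Diet alone moved no gene of the list past the threshold in either genotype by edgeR, DESeq2 or limma-voom, as for 0% of all genes by edgeR in both. In wild type embryos 75 of 77 lay higher on the enriched diet (49.3% of all genes lay below 0), with a median of 0.14 (all genes 0.00245) and 6 genes at an unadjusted p under 0.05 by edgeR (2.44% of all genes), 6 by DESeq2 and 3 by limma-voom. Other genes with short transcripts were higher too: their median was 0.13 under 1000 bases, where that of the 25 ribosomal genes was 0.17, and 0.11 from 1000 to 1500 bases, where that of the 22 ribosomal genes was 0.12. After the correction for transcript length and GC content described below, the median of the 77 was 0.07, and 13 lay below 0. It was 0.08 when both groups were fitted alone, 0.08 without enriched wild type 1 and 0.22 without enriched wild type 2. Mrpl49, a mitochondria-specific protein, had the smallest p. It read 69.1, 63.3, 74.6 and 72.5 CPM on the moderate and 87.1, 83.9, 81.6 and 78.5 CPM on the enriched diet, without overlap, and a change of 0.26 ± 0.09 (edgeR adjusted p 0.967). Mrps9, which reaches toward the peptidyl tRNA, followed with 0.17 ± 0.08, and Mrpl14, at the face between the subunits, with 0.35 ± 0.16.

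In mutants 72 of 77 lay lower on the enriched diet (51.0% of all genes), with a median of -0.15 (all genes -0.00524) and 11 at an unadjusted p under 0.05 by edgeR (10.8% of all genes), 9 by DESeq2 and 10 by limma-voom. The median was -0.04 without the 3 libraries of contradicted sex label, -0.09 without moderate mutant 2 and -0.10 with total count scaling. The smallest p-values were those of Mrps25 (-0.25 ± 0.09), Mrpl34 (-0.34 ± 0.13) and Mrpl20 (-0.34 ± 0.14), each with an edgeR adjusted p of 0.442. Mrps25 read 48.6, 54.6, 57.6 and 46.1 CPM in moderate and 45.7, 41.4, 47.3 and 37.1 CPM in enriched diet mutants, which overlapped. These contrasts share their libraries with the genotype contrasts, so they are not separate evidence.

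The libraries of a group were far from alike, and the genes moved together within groups. The mean centred log2 CPM of the 77 genes was 0.25, 0.03, 0.20 and -0.04 in enriched diet wild types 1 to 4, and -0.01, -0.20, -0.0039 and -0.35 in enriched diet mutants 1 to 4. The ranges overlapped, since wild type 4 lay below mutants 1 and 3. In moderate diet mutants it ran from -0.20 (mutant 4) to 0.16 (mutant 2), wider than the moderate diet wild types, from -0.05 to 0.05. The share of all counts taken by the 77 genes was 0.413 ± 0.036% (SD, n = 4) in enriched diet wild type and 0.349 ± 0.029% in enriched diet mutants, and 0.383 ± 0.011% and 0.374 ± 0.031% in wild type and mutants of the moderate diet. Lower summed levels in bulk tissue may reflect fewer cells of a type or less RNA per cell, which cannot be told apart here.

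Transcript length moved with these levels. The 77 genes are short, with a median transcript of 1288 bases against 3044 for 13933 other tested genes. Among other genes, the median centred log2 CPM of transcripts under 1500 bases minus that of transcripts over 4000 bases was highest in enriched diet wild types 1 (0.35) and 3 (0.26), the libraries where the 77 genes were highest, and lowest in enriched diet mutant 4 (-0.26) and moderate diet mutant 4 (-0.18), among the 3 libraries where they were lowest. In mutants over wild types on the enriched diet, other genes of 1000 to 1500 bases had a median log2 fold change of -0.12 and 24.7% of them were called lower. The 22 ribosomal genes of that length had a median of -0.32 and 13 of them were called. After an added correction of each library for transcript length and GC content, 31 of 77 were called lower, all among the 36, where 17.2% of all genes were, and the median was -0.15. Mrpl20 was then at -0.63 ± 0.10 (edgeR adjusted p 0.0005) and Mrps11 at -0.53 ± 0.09 (0.000438). The median difference between the genotype effects was -0.15 after the correction.

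**Figure D5:**
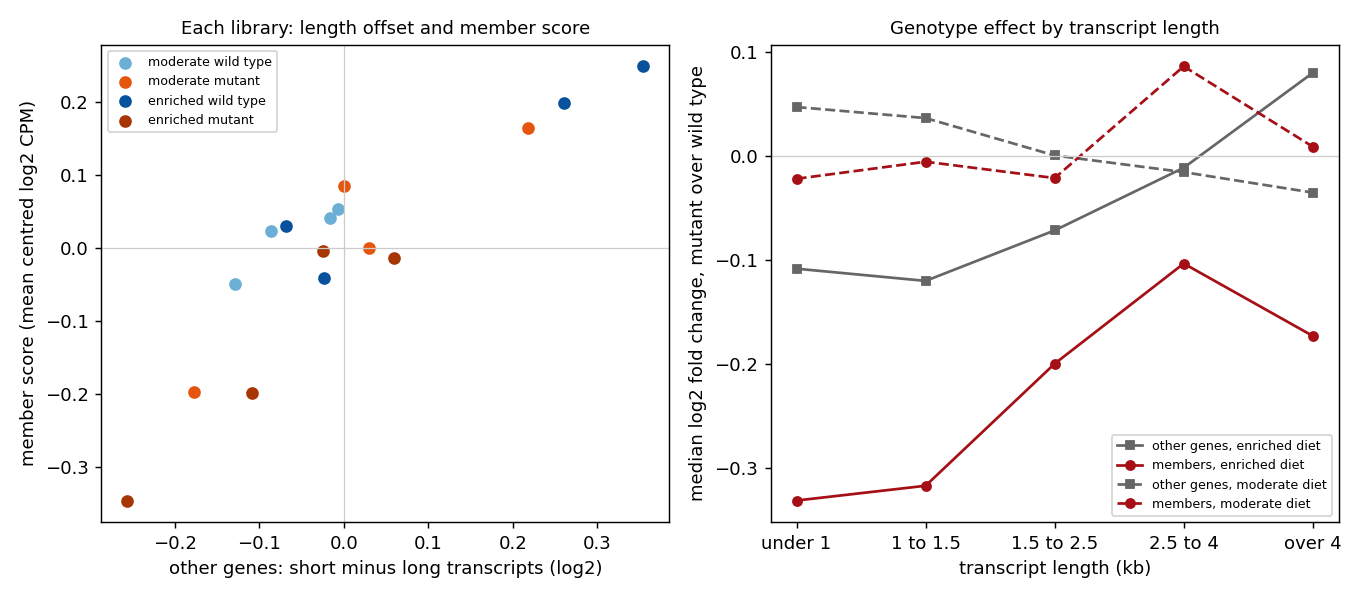
Left, for each library, the centred log2 CPM of other genes with short transcripts minus those with long ones (x) and the mean centred log2 CPM of the 77 genes (y). Right, median log2 fold change of mutants over wild type by transcript length for other genes (grey squares) and the 77 genes (red circles), solid for the enriched and dashed for the moderate diet; the last 3 length classes hold 9 to 11 ribosomal genes each, and the red solid line lies below the grey one in all 5.

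Other features of the libraries were set beside the fall, and their part in it was not tested. Hypoxia and glycolysis genes rose on both diets (23 of 24 each), with medians of 1.22 on the moderate and 1.30 on the enriched diet, and amino acid and stress response genes rose for 16 and 18 of 20. Among all genes 4.79% were called higher on the moderate and 14.4% on the enriched diet, while 51.9% and 50.6% lay below 0. All 9 erythroid genes tested lay below 0 on both diets, with medians of -0.58 on the enriched and -0.96 on the moderate diet, and 2 and 1 of them passed as lower (16.8% and 2.83% of all genes). Of 10 endothelial genes 3 fell and 2 rose on the enriched diet (16.8% and 14.4% of all genes), and 2 rose on the moderate diet (4.79% of all genes). The summed level of 10 yolk sac and visceral endoderm markers was 8.70 to 139 CPM in enriched diet mutants and 14.4 to 33.9 CPM in wild type of that diet, and none of the 9 tested passed. The summed level of 10 erythroid markers was 1479 to 3751 CPM in enriched diet wild type and 706 to 3554 CPM in enriched diet mutants, with Hba-a1 at 0 in all groups. Without mutant 3 of the enriched diet, the library with decidual markers, 34 of the 77 genes were called lower (15.1% of all genes).

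Annotated exons of 20 of the 77 genes overlap those of another protein-coding gene in the tables, and the counts of such genes are uncertain. Most of these overlaps are on opposite strands, which the kit does not tell apart, while those of Mrps34 with Nme3, Mrps24 with Urgcp and Mrps6 with Slc5a3 are on the same strand. Of the 36 called genes 15 have such an overlap and 21 do not. Among these, overlap was largest for Mrps25, which shares 69.8% of its exon length with Nr2c2, and Mrps34. Mrps34 shares 63.4% with Mapk8ip3 and 37.0% with Nme3, and both genes are named for their overlap. Overlaps with protein-coding genes whose symbols the tables lack were left out of these counts. Examples are Mrpl53, which shares 88.0% with Gm42688, and Mrpl43, a called gene, which shares 33.4% with Twnk.

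Other genes of the same machinery were described from lists, whose counts on the enriched diet stand against 16.8% of all genes called lower and 14.4% higher. Of 6 mitochondrial ribosome genes with other symbols, 2 fell on the enriched diet: Gadd45gip1, a large subunit protein (-0.43 ± 0.10, edgeR adjusted p 0.00555), and Ict1, a peptidyl-tRNA hydrolase built into the large subunit (-0.34 ± 0.10, adjusted p 0.0131). The call of Ict1 was lost without enriched wild type 1 (0.0538), wild type 3 (0.055), mutant 2 (0.0572) or mutant 4 (0.0504). Of 25 assembly factors 5 fell and 4 rose, shares near those of all genes, and the GTPase Mtg1 was among the higher ones (0.30 ± 0.08). Of 14 translation factors 3 fell, the deformylase Pdf (-0.55 ± 0.11) and the elongation factors Tsfm (-0.42 ± 0.10) and Gfm1 (-0.27 ± 0.08), and the initiation factor Mtif2 rose (0.47 ± 0.10). The call of Gfm1 was lost in 7 of 21 alternatives, including those without enriched wild type 1 (0.0582), 2 (0.0835) or 3 (0.0789) or enriched mutant 1 (0.0511) or 2 (0.13). For transcription and RNA processing in mitochondria 9 of 20 fell and 1 rose, with Tfb2m, a factor that opens mitochondrial promoters, at -0.52 ± 0.13 and Fastkd5 at -0.47 ± 0.11. Medians of these lists on the enriched diet were -0.08, -0.11, -0.03 and -0.14. Dap3 of the small subunit was the 1 gene of these 4 lists to pass on the moderate diet, where it was higher (0.32 ± 0.08, adjusted p 0.0212). That call was lost without moderate wild type 1 (0.0514) or 3 (0.0703) or moderate mutant 1 (0.0788) or 2 (0.075), and without the libraries of contradicted sex label (0.582). On the enriched diet Dap3 lay above 0 as well (0.20 ± 0.08, edgeR adjusted p 0.0676), and it passed as higher in 6 of 21 alternatives.

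Of 20 general mitochondrial genes for import, chaperones, porins and matrix enzymes 7 fell and 3 rose on the enriched diet, the latter a share near the 14.4% of all genes, with Phb, an inner membrane scaffold, at -0.55 ± 0.13 and the protease Lonp1 (0.33 ± 0.06), the chaperone Hspa9 (0.29 ± 0.07) and the fusion factor Opa1 (0.35 ± 0.07) higher. Of 10 regulators of mitochondrial biogenesis Ppargc1b (1.47 ± 0.29) and Mycn (0.47 ± 0.14) rose and Nrf1 fell (-0.23 ± 0.06, edgeR adjusted p 0.0119). The fall of Nrf1 was lost in 4 of 21 alternatives, including the fits without enriched wild type 3 (0.0511) or enriched mutant 2 (0.0649). Lonp1 (0.34 ± 0.05, adjusted p 0.00123) and Mycn (0.59 ± 0.14, adjusted p 0.0159) also rose on the moderate diet. The call of Mycn there was lost without moderate wild type 1 (0.0529) or moderate mutant 1 (0.0665), 2 (0.0573) or 4 (0.0542), and without the libraries of contradicted sex label (0.537), where that of Lonp1 was lost too (0.108).

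Cytosolic ribosomal proteins and oxidative phosphorylation subunits were set beside the 77 genes with the same fit. Their counts stand against 16.8% of all genes called lower and 14.4% higher on the enriched diet, and 4.79% higher on the moderate diet. Of 77 tested cytosolic ribosomal genes 6 fell and 3 rose on the enriched diet, with a median of -0.01, and 7 rose on the moderate diet, with a median of 0.21. Of 73 oxidative phosphorylation genes 18 fell and 3 rose on the enriched diet, with a median of -0.17, and 2 rose on the moderate diet, with a median of 0.10. Of all these counts, only the 18 falls and the 7 cytosolic rises were above the shares of all genes. The difference between these lists and the mitochondrial ribosomal genes was not tested. The medians of the difference between the genotype effects were -0.25 for the cytosolic ribosome, -0.30 for oxidative phosphorylation and -0.30 for the mitochondrial ribosome.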

How the data were processed

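The submitters' processing notes name the build mm10 and the tools FastQC 0.11.5, TopHat2 2.1.1, SAMtools 1.8, HTSeq 0.9.1 and DESeq2 1.22.2. The annotation and counting options are not given in the sources used here. Values deposited by the authors are raw counts per gene symbol, without normalization. The 5 summary lines of the counter were left out; reads on no feature were 13.7 to 17.0% of them and the gene counts together. Totals ran from 19249433 to 44267434 counts per library, so members at the low end, such as Mrpl23, are measured less precisely than the others. The library kit, per the labels' protocols, was TruSeq RNA version 2.

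Counts were fitted with edgeR 4.0.16 in R 4.3.3 (quasi-likelihood test, trimmed mean of M values, 10 counts or more in 4 or more libraries) over all 16 libraries, with group and labelled sex. Adjusted p-values are Benjamini-Hochberg over all 14514 genes, with a threshold of 0.05. The SE is the log2 fold change divided by the root of F. Log2 CPM used a prior count of 2. Lengths, GC and positions come from GENCODE vM21 (mm10), which matched 23376 symbols and all 77 members. Alternatives used limma 3.58.1 and DESeq2 1.42.0. They were other scalings, filters, sex terms and tools, the replicate block, groups fitted alone, libraries left out and a length and GC correction. The fit was tested on simulated data for the genotype contrast of the enriched diet. It called 14% of 50 genes changed 1.25-fold and 54% of 50 genes changed 1.4-fold, so changes of that size can go uncalled. Genes were named by rule: of the members past the threshold in a genotype contrast up to 8 with the largest fall or rise, the 3 with the smallest p where a diet contrast had none, the S18 family, Mrps30, Mrps36 and Mrpl12 for their structure, the 3 highest and lowest per length in each subunit, and list genes with the smallest p. Exceptions are stated. The members, the lists and these rules were chosen with earlier results of these data known. Replicate numbers were not taken as pairs in the main fit, since the labels do not tie them to litters, and no 2 libraries of a group were duplicates.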

Additional observations from a re-analysis of the deposited data

Results flagged for a closer look

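Of 120 groups of 4 libraries examined (27 named genes, the 2 subunit scores and the share of counts, in 4 groups each), 3 held a library far from the other 3. That is fewer than the 1 in 20 or so that chance gives, so the 3 are only listed. Mrps5 read 22.2 CPM in moderate diet wild type 2, below the other 3 (25.4 to 25.98 CPM); this library also had the lowest Ift88 of the wild types. Mrps30 read 91.4 CPM in moderate diet mutant 2, above the others (70.3 to 73.0 CPM); its sex label was contradicted. Mrps15 read 46.1 CPM in enriched diet mutant 4, below the others (54.9 to 56.6 CPM), in the library with the lowest mean level of the 77 genes. The cause was not tested.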

How the results depend on the processing

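The count of 36 lower genes on the enriched diet ranged from 25 to 41 over 21 alternatives, and 25 to 36 of the 36 were kept in each. It was 25 when the 2 groups were fitted alone, and 25 to 41 when single libraries were left out. It was 25 without enriched wild type 1, enriched wild type 3 or enriched mutant 4. With the length and GC correction it was 31, where 17.2% of all genes were called lower, against 16.8% in the main fit. For the fits with 25, 38 or 41 the share of all genes is not given here. Those counts therefore do not show whether these genes gained or lost calls more than other genes did. The median stayed below 0, between -0.33 and -0.15. Genes higher on the enriched diet numbered 0 to 1 when single libraries were left out. On the moderate diet 1 gene, Mrps11, was lower with total count scaling, DESeq2, the CPM filter, the replicate block, without the 3 libraries that stand apart (moderate wild type 2, moderate mutant 3, enriched mutant 3) and with the length and GC correction, which was chosen after seeing the data; leaving out single libraries gave 0 to 1. The diet contrasts and the difference between genotype effects gave 0 in every alternative. The median on the moderate diet ran from -0.09 to 0.06, so it has no stable sign. With the replicate number as a block 38 genes were lower on the enriched diet, 36 of them shared. Same-numbered libraries of different groups correlated from -0.29 to 0.51, above 0.1 in 8 of 24 pairs. The labels give no litter, so a pairing by number is neither shown nor excluded. Best matches to the own number were 2 of 8 libraries on each diet, 0 of 8 in wild type and 4 of 8 in mutants. Depth limits low genes most, such as Mrpl23 with an SE of 0.27.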
